A study of Mus musculus with 4 samples.

Results

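The control array at 0 h was compared with the 3 arrays of insulin-treated mouse osteoblasts, to ask which cell identity and lineage genes were bright on one side of the comparison and dim on the other. Each gene was read by 1 probe set, the set of short probes that measures a transcript on the array. It was the probe set with 1 gene symbol and the highest mean log2 intensity over the 4 arrays. A gene was kept where that mean reached the median of all probe sets that were not controls, an intensity of 66.2, and 11662 of 18194 genes were kept. The gene just inside this filter was Spry4 (64.3, 59.9, 68.4 and 72.8 at 0, 6, 12 and 24 h) and the gene just outside it was Ap3b2 (56.5, 69.6, 72.4 and 67.3). The 4 groups held 1 array each, namely a control labelled 0 h and 3 treated cultures, which were serum-starved and then kept in 10 nM insulin for 6, 12 or 24 h. All 4 came from confluent cultures labelled as osteoblasts. The genotype entry of all 4 reads IGF-1 null, while the growth notes name a lack of the IGF-1 receptor, so both sides of the comparison share that change and it cannot be told here which of the names holds. The sources used here do not say whether the cells were a clone, a line or a primary culture, or how the gene was deleted.

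Cells of the skeleton arise from mesenchyme, and bone, cartilage, tendon, fat and contractile cells each switch on their own matrix and structural genes as they mature. Mesenchyme also keeps a record of where in the body it came from, in the homeobox and other patterning factors that it goes on expressing. Imprinted genes are read from 1 parental copy only, and many of them are bright in embryonic mesenchyme. Macrophages share none of this descent, since they come from the blood-forming lineage.

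With 1 control array there is no replicate of 0 h. An exact permutation test of 1 array against 3 could not go below 0.25 (one-sided), or 0.5 where that value is doubled. Every difference here is thus a description without a test. The insulin arrays are different times and not replicates. Differences are given as the mean log2 intensity of the insulin arrays minus the log2 intensity at 0 h, and 1 unit is 2-fold. The median difference over all kept genes was 0.01. The median intensity of each array lay between 64.97 and 65.75, and across the kept genes the 0 h array correlated with the insulin arrays at 0.842 to 0.859 and the insulin arrays with one another at 0.994 to 0.997. For 10170 genes (87.2%) the 0 h value lay outside the range of the insulin arrays. The median size of the difference was 0.36 and the median range among the insulin arrays 0.16, both in log2. The Y-linked gene Eif2s3y (12.2, 295, 305 and 326) was dim at 0 h and bright on every insulin array. Xist (109, 1636, 1278 and 1463), which is transcribed from the inactive X chromosome, was also lowest at 0 h, though above the filter value there by its brightest probe set. A further probe set of Xist was below the filter value at 0 h (23.4, 280, 201 and 354). Kdm5d (10.1, 57.8, 52.7 and 61.8) and Uty (12.9, 43.7, 48.7 and 52.6), both Y-linked, were lowest at 0 h but below the filter value throughout. Usp9y and Zfy2, dim on every array, and Sry (103, 90.4, 92.2 and 86.1) were within 2-fold. So were the X-linked partners Eif2s3x, Ddx3x, Kdm5c and Kdm6a. The sources used here do not say whether the 0 h array came from the same culture or line as the insulin arrays, and this bears on every difference given. Time, insulin and a difference in source cannot be told apart with these arrays.

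Macrophage markers moved with the comparison as well. Of 17 measured, 14 passed the filter. Of these, 13 (92.9%) were at least 2-fold higher on the insulin arrays, against 11.1% of all kept genes. The summed intensity of all 17 was 1331 at 0 h and between 8609 and 13138 on the insulin arrays, and 2 markers were below the filter value on every array. The part of these cells in the other differences below was not tested. In RNA from a whole culture, fewer cells of a type and less RNA per cell cannot be told apart.

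The kept genes held 1289 (11.1%) that were at least 2-fold higher on the insulin arrays and 560 (4.8%) at least 2-fold higher at 0 h. In 1848 of these 1849 genes the difference was larger than the range among the insulin arrays, and 0 genes were 2-fold above the control at one time and 2-fold below it at another. Where a gene had further probe sets above the filter, they all pointed the same way for 463 of 509 genes higher on the insulin arrays (91.0%) and 222 of 234 genes higher at 0 h (94.9%), against 3623 of 5098 (71.1%) of all kept genes.

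**Figure D1:**
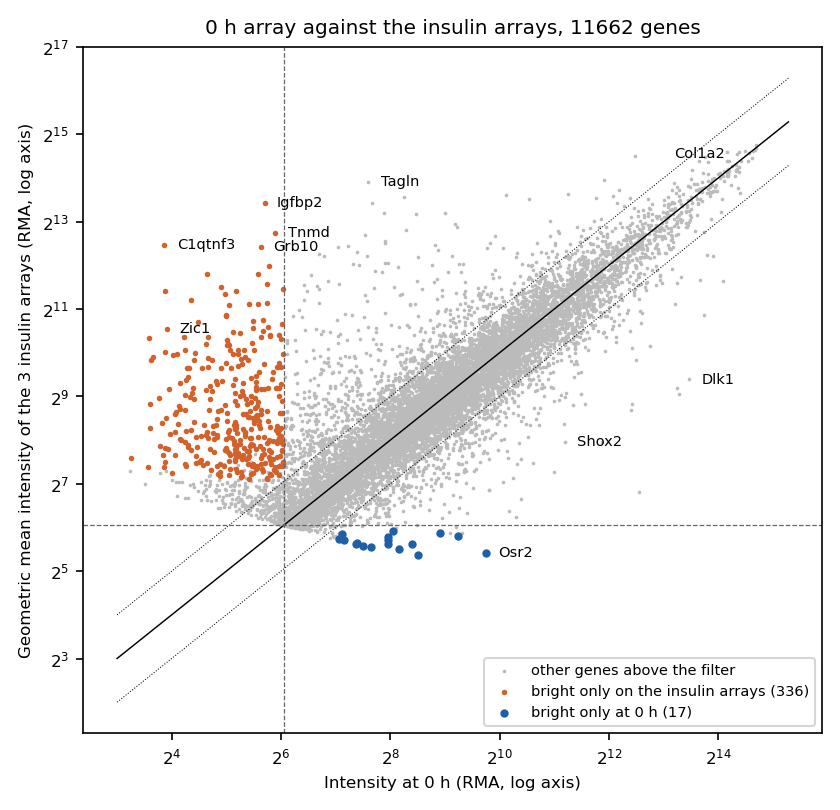
Each point is 1 of 11662 genes, placed by its intensity at 0 h and by the geometric mean of the 3 insulin arrays, both on log axes. Dashed lines mark the filter value of 66.2, the solid line equal intensity and the dotted lines 2-fold. The 336 genes bright only on the insulin arrays fill the upper left and include Igfbp2, Tnmd and Zic1, while the 17 bright only at 0 h lie at the lower edge with Osr2 farthest right.

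A gene was called bright only on the insulin arrays where all 3 of them reached 132 (2 times the filter value) and the 0 h array was below the filter value. This held for 336 genes (2.88% of those kept). The 12 farthest apart were C1qtnf3, Igfbp2, Tenm3, Sulf1, Rps4l, Tnmd, Grb10, Epha3, Zic1, Actg2, Fhl1 and Cnn1, with log2 differences from 6.24 to 8.61. They held matrix and matrix-modifying proteins, a tendon gene, contractile proteins, an imprinted growth regulator and a patterning factor. C1qtnf3, which encodes a secreted protein found in cartilage, had intensities of 14.6, 5035, 6194 and 5905 at 0, 6, 12 and 24 h. Fhl1, a LIM-domain protein of muscle and connective tissue, had 31.4, 2685, 2581 and 2571. Tenm3, a transmembrane protein that guides contacts between cells, had 14.8, 2695, 2775 and 2749. On these genes the 0 h array was far below each insulin array, and the insulin arrays lay close together. Since the 0 h values were near background, the folds of such genes are set mainly by the dim value. Of the 105 genes of this group with further probe sets above the filter, 99 (94.3%) had all of them pointing the same way. In 27 of the 105, however, a further probe set was at or above the filter value at 0 h, so the call rests on the brightest probe set. Of genes named here this applies to Igfbp5, Col9a1, Cspg4, Mirg, Laptm5 and Foxf1.

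The opposite pattern was called where the 0 h array reached 132 and each insulin array was below the filter value, and it held for 17 genes (0.146%). Osr2, a zinc finger factor of limb joint, palate and kidney mesenchyme, was the farthest apart, at 864, 51.4, 43.04 and 35.2 (-4.34 in log2). Vav3, a signalling protein, had 605, 55.9, 54.3 and 56.3, and Gas7, a protein of the cell cortex first known from growth-arrested cells, had 483, 65.8, 63.1 and 47.4. These genes were clear at 0 h and at the level of the filter or below on each insulin array. Mmp9, a gelatinase that is abundant in osteoclasts, had 249, 52.4, 51.2 and 53.7. Gsto2, a glutathione transferase, had 363, 43.2, 46.8 and 34.7, and Pi15, a secreted peptidase inhibitor, had 284, 45.3, 45.7 and 45.1. The other 11 were Taf15, Peli2, Ftx, Amacr, Cldn15, Fancb, Gm4432, Bbs12, Atad5, Ppargc1b and Ocel1, with log2 differences from -2.77 to -1.25. Fancb and Atad5 act in DNA repair and replication, Ppargc1b is a coactivator of mitochondrial genes, and Ftx is a non-coding RNA next to Xist. Of this group 1 gene, Gas7, had a further probe set above the filter. That probe set was also lower on the insulin arrays, but by only -0.29 in log2 (113, 109, 93.5 and 77.4). It was above the filter value on every array, so the call for Gas7 rests on its brightest probe set. Without the 6 h array, 29 genes met the rule.

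A filter on the mean of 4 arrays favours genes that are bright on 3 of them. With a gene kept where either side reached the filter value, 12049 genes were compared, 336 (2.79%) were bright only on the insulin arrays and 42 (0.349%) only at 0 h. The 25 added at 0 h were led by Trim30d (706, 16.7, 15.6 and 17.6), a member of a family that responds to interferon. They also held Msln (245, 23.4, 19.03 and 20.7), which encodes the mesothelial surface protein mesothelin, the nuclear receptor gene Nr3c2 (171, 48.97, 41.95 and 33.1), and Ddx60 (289, 30.5, 24.9 and 22.7), a helicase induced by interferon. Each of these was bright at 0 h alone.

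Lineage was then read from lists of marker genes, 31 in all. They named 466 genes, and 37 of these lacked a probe set with a single symbol. The bone transcription factor Runx2, osteocalcin (Bglap) and osteopontin (Spp1) were among the 37. The lists with the highest medians were macrophage (3.24), tendon and ligament (2.45), smooth muscle and myofibroblast (2.38), osteoblast (2.20) and chondrocyte (2.17), against 0.01 for all kept genes. The lowest medians were those of erythroid genes (-0.75, with 1 gene above the filter), the beta protocadherins (-0.72), simple epithelium (-0.35) and Hox genes (-0.32). The medians of fibroblast (0.02), marrow stromal cell (0.07), adipocyte (0.01) and reference genes (-0.04) were close to that of all genes. The list counts below stand beside shares of all kept genes of 11.1% at least 2-fold higher on the insulin arrays and 4.8% at 0 h. The share bright only on the insulin arrays was 2.88% and the share bright only at 0 h was 0.146%. The filter on the mean favours list members that are bright on the 3 insulin arrays.

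**Figure D2:**
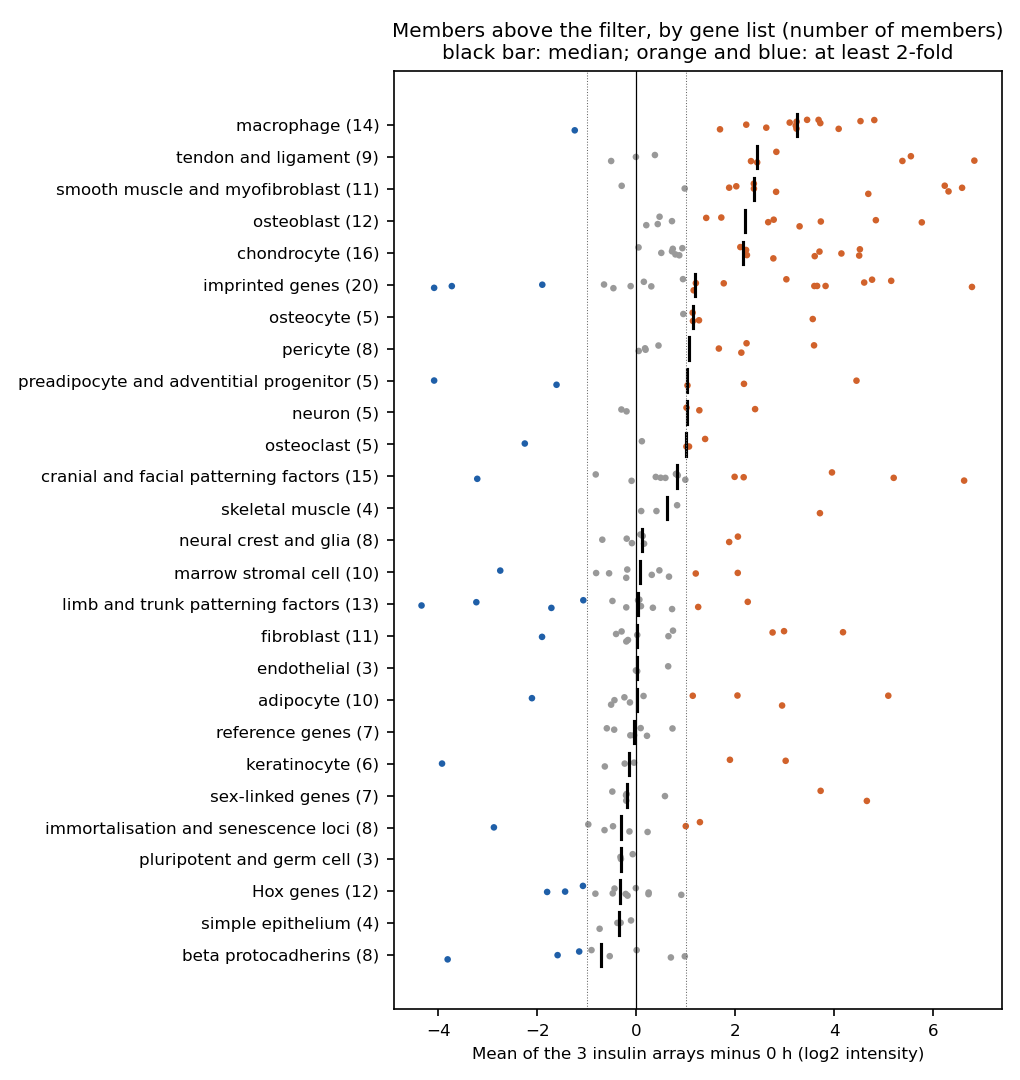
Each point is 1 list member above the filter, placed by its log2 difference, with lists of at least 3 such members ordered by their medians (black bars) and dotted lines at 2-fold. Orange points are at least 2-fold higher on the insulin arrays and blue points at least 2-fold higher at 0 h. The macrophage, tendon, smooth muscle, osteoblast and chondrocyte lists lie mostly to the right, and the patterning factors, imprinted genes and fat progenitor genes spread to both sides.

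Genes of mature bone were higher on the insulin arrays. Of 12 osteoblast markers above the filter, 8 were at least 2-fold higher, 0 were lower by that size, and 4 were bright only on the insulin arrays. Those 4 were Pth1r, the parathyroid hormone receptor (36.9, 703, 1186 and 1444), Alpl, Dlx5 and Smpd3. Dlx5, a homeobox factor that acts upstream of osterix, had 39.4, 342, 419 and 412. Smpd3, a sphingomyelinase needed for mineralisation, had 65.2, 142, 266 and 263, and Ifitm5, a membrane protein found in bone-forming cells, had 73.3, 302, 523 and 644. The 0 h array was below each insulin array for every one of these genes. At 0 h the markers divided on the osteoblast label. Sp7 (osterix), Alpl, Dlx5, Pth1r and Smpd3 were below the filter value there, 5 of 12 in all. Ibsp, the bone sialoprotein (202, 8849, 11706 and 13147), and Mmp13, a collagenase (535, 2564, 4201 and 4636), were bright at 0 h, although lower than on each insulin array. A further probe set of Ibsp was just below the filter value at 0 h (65.5, 2358, 3500 and 4450), so for Ibsp this rests on the brightest probe set. The 4 markers within 2-fold were Col1a1, Col1a2, Sparc and Cdh11, which other mesenchymal cells also express, and all 4 were bright at 0 h too. Col1a2, which encodes type I collagen, had 20828, 23219, 23933 and 24963. Another probe set of Col1a1 and another of Sparc pointed the other way. A further probe set of Cdh11 was more than 2-fold higher on the insulin arrays (226, 542, 568 and 579, 1.32 in log2). Among osteocyte markers, which belong to cells embedded in bone, 4 of 5 were at least 2-fold higher, with a median of 1.15. Dmp1, a phosphoprotein of the mineralising matrix, had 158, 1164, 2154 and 2645, and Phex, the fifth, had 191, 223, 427 and 531.

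Bone genes also differed between the insulin arrays. All 12 osteoblast markers were higher at 24 h than at 6 h, 7 of them stepwise, with a median 24 h minus 6 h difference of 0.67. Of all 11662 genes, 5723 were higher at 24 h than at 6 h and 1968 were stepwise, with a median of -0.0023. Macrophage markers were stepwise in 13 of 14 over the same arrays, and the relation of the lists was not tested.

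Cartilage genes were higher in the same direction. Of 16 chondrocyte markers above the filter, 9 were at least 2-fold higher, 0 were lower by that size, and the median was 2.17. Col2a1, the main collagen of cartilage, had 239, 3151, 4643 and 5209. Comp, a matrix protein of cartilage and tendon, had 133, 1980.4, 3481 and 4051, and Acan, the proteoglycan aggrecan, had 92.2, 336, 454 and 524. All 3 were well below every insulin array at 0 h. Prg4, the lubricin of joint surfaces, Col9a1, Col10a1 and Col11a2 were bright only on the insulin arrays. Col10a1, a collagen of enlarged growth plate cells, had 35.4, 176, 264 and 307. By their brightest probe sets the transcription factors of the lineage differed less. Sox9 had 459, 618, 687 and 655, Sox6 had 104, 176, 182 and 217 and Sox5 had 82.2, 82.1, 83.8 and 89.6. Further probe sets of Sox6 differed by 2.93 and 3.25 in log2 and were below the filter value at 0 h (19.8 and 13.98). The smaller difference of Sox6 thus rests on its brightest probe set. All 16 were higher at 24 h than at 6 h, against 5723 of 11662 kept genes, and 12 were stepwise, with a median of 0.52.

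Tendon genes were among those farthest apart. Of 9 above the filter, 6 were at least 2-fold higher, 0 were lower by that size and 3 were bright only on the insulin arrays. Tnmd, the membrane glycoprotein tenomodulin that marks tendon cells, had 59.7, 6709.9, 7689 and 6174. Scx, the factor scleraxis that specifies tendon progenitors, had 18.8, 106, 104 and 98.6, and Thbs4, a thrombospondin of tendon matrix, had 53.7, 2238, 2402 and 2095. The 0 h value was the lowest of 4 in each. Mkx, another tendon factor, had 273, 358, 377 and 331, and the matrix genes Ogn (8052, 7104, 8309.9 and 8783) and Aspn (6106, 4318, 4185 and 4416) were bright on every array. Unlike bone, tendon genes had a median 24 h minus 6 h difference of 0.03, and the difference between these lists was not tested.

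Contractile genes were dim or moderate at 0 h and bright on the insulin arrays. Of 11 smooth muscle and myofibroblast markers above the filter, 9 were at least 2-fold higher and 0 lower, with a median of 2.38. Tagln, an actin-binding protein of smooth muscle and activated fibroblasts, had 194, 15498, 15878 and 14966. Actg2, a smooth muscle actin, had 30.1, 2873, 3111 and 2723, Cnn1, the regulatory protein calponin, had 36.02, 2612, 2908 and 2659, and Myh11, the smooth muscle myosin heavy chain, had 24.9, 169, 178 and 186. Actg2, Cnn1, Myh11 and Lmod1 were bright only on the insulin arrays. Acta2, the actin of myofibroblasts, was bright everywhere but lowest at 0 h (5705, 22597, 24118 and 23002). Des, which encodes desmin, was an exception (111, 91.98, 90.9 and 89.3). The values at 6, 12 and 24 h lay close together, with a median 24 h minus 6 h difference of 0.03. Of the skeletal muscle list only Acta1 (130.2, 1712, 1802 and 1626) was 2-fold apart among 4 kept genes, and 11 of 17 members were below the filter value on all arrays. Of 8 pericyte markers, which belong to cells wrapped around small vessels, 4 were 2-fold higher. Cspg4, the NG2 proteoglycan, had 36.7, 385, 450.2 and 504, Mcam had 49.3, 243, 240.0 and 215, and Pdgfrb, which other mesenchymal cells also express, had 4977, 4882, 5317 and 5307.

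**Figure D3:**
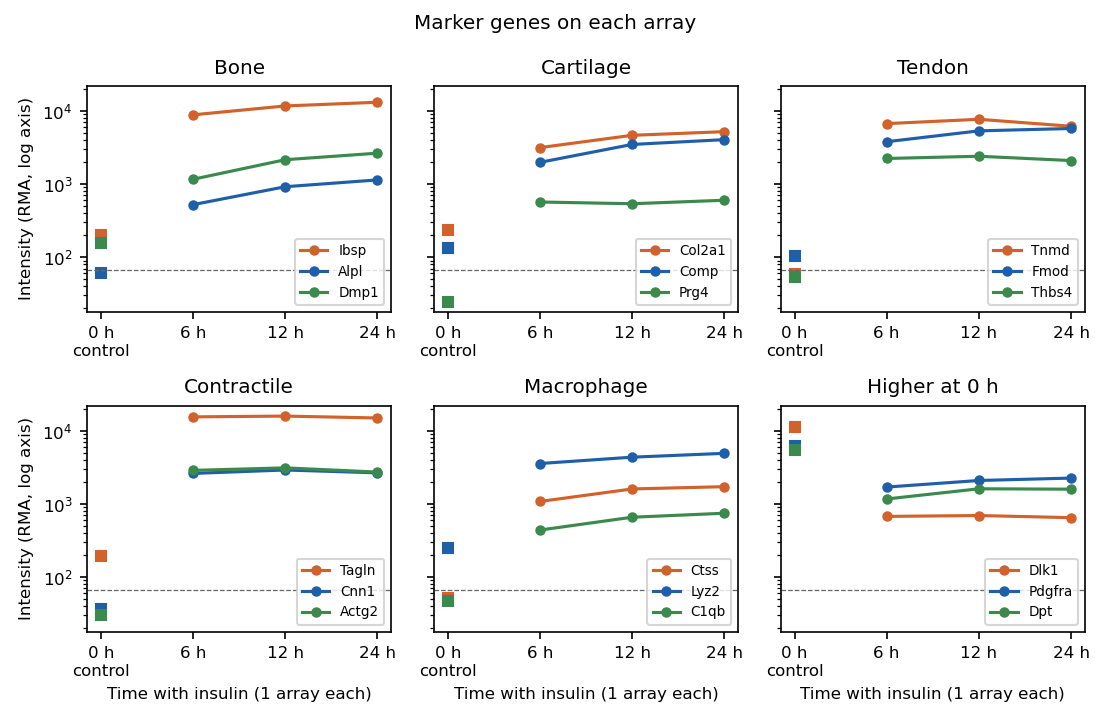
Intensities (log axis) on the 0 h array (squares) and on the insulin arrays (circles joined by lines), 1 array per time, with the filter value of 66.2 dashed. Bone, cartilage and macrophage genes are low at 0 h and higher at 24 h than at 6 h, tendon and contractile genes are low at 0 h and, apart from Fmod, differ less between the insulin arrays, and Dlk1, Pdgfra and Dpt are highest at 0 h.

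Macrophage genes were mostly dim at 0 h, and all 14 above the filter were bright on every insulin array. At 0 h 3 of the 14 were bright as well, namely Cd14, Lyz2 and Csf1r, whose 2 further probe sets read 188 and 138 there. The list median was 3.24, and 10 of 14 markers were bright only on the insulin arrays. Ctss, the lysosomal protease cathepsin S, had 51.04, 1079, 1601 and 1721. Csf1r, the receptor for the macrophage growth factor, had 137, 676, 900.1 and 1006, and C1qa, a chain of the first complement component, had 41.6, 319, 494 and 606. Lyz2, the macrophage lysozyme, was above the filter value at 0 h as well (248, 3565, 4354 and 4914). Each of these stood lowest at 0 h and highest at 24 h. Stepwise order from 6 to 24 h was seen in 13 of 14. Cd14, a receptor for bacterial lipopolysaccharide that fibroblasts can also express, went the other way (370.1, 155, 153 and 162). For Laptm5 the 3 further probe sets read 102, 134 and 107 at 0 h, all above the filter value, and the last of them pointed the other way. Of 5 osteoclast markers, 3 were 2-fold higher and Mmp9 was bright only at 0 h. Acp5, the tartrate-resistant phosphatase of osteoclasts, had 43.3, 78.4, 102 and 94.02, and Ctsk, their collagen-cleaving cathepsin, had 1704, 3468, 3374 and 3503 and was thus bright on every array. The lymphoid and mast cell list had 12 of 13 members below the filter value on all arrays.

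Genes of fat and of its progenitors divided between the sides. Dlk1, a membrane protein that holds back fat cell differentiation, had 11384, 674, 693 and 648, and Pdgfra, a growth factor receptor of mesenchymal progenitors, had 6099, 1699, 2089.8 and 2254. Cd34, another progenitor marker, was bright only on the insulin arrays (28.3, 663, 637 and 568). The first pair was highest at 0 h and Cd34 lowest there. Ebf2, a factor of fat progenitors, had 102, 432, 483 and 473. In the adipocyte list 4 of 10 were 2-fold higher and 1 lower. Adipoq, the hormone adiponectin made by fat cells, had 23.4, 511, 885 and 1141, while Lpl, the lipase that releases fatty acids from lipoproteins, had 9525, 1492, 2394 and 3035. Pparg, the main fat cell factor, had 223, 107, 184 and 196. At 24 h, 9 of 10 adipocyte genes were higher than at 6 h, against 5723 of 11662 kept genes, and 8 were stepwise, with a median of 0.80. The median of the progenitor list, 1.04 over 5 genes, was -0.0893 without the brightness filter and -1.61 with the filter at the 75th percentile.

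Genes common to fibroblasts and stroma were bright on both sides. Of 11 fibroblast genes 7 were within 2-fold, among them Vim (18644, 19269, 18494 and 19094), Col3a1 (25227, 21801, 22675 and 23082) and Dcn (11609, 8729, 8711 and 8874), which encode vimentin, type III collagen and decorin. The exceptions were Fap, a protease of activated fibroblasts (69.1, 977, 1281 and 1579), Lum (1488, 10514, 11929 and 13203) and Thy1 (962, 6540.3, 6678 and 6339.9), all lowest at 0 h, and Dpt, the matrix protein dermatopontin (5381, 1168, 1609.7 and 1589.8), which was highest there. Of 10 marrow stromal genes 7 were within 2-fold. Kitl, the stem cell factor made by stroma, was highest at 0 h (3048, 384, 468 and 521), and Eng, a co-receptor for TGF-beta, was lowest there (260.3, 1044, 1166 and 1041). Other probe sets of Vim, Prrx1 and Cxcl12 pointed the other way. Some genes counted as within 2-fold had a further probe set beyond it. Higher on the insulin arrays were those of Col5a1 (2.15 and 1.73 in log2), Fn1 (1.06) and Nt5e (4.07). Higher at 0 h were those of Vcam1 (-1.17) and Ebf3 (-1.14). The counts within 2-fold thus rest on the brightest probe sets.

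Markers of more distant lineages were below the filter value on every array to differing extents. That held for 8 of 11 endothelial, 8 of 12 simple epithelial, 7 of 8 endoderm, 9 of 12 pluripotent and germ cell, and 4 of 5 erythroid genes, but for only 4 of 11 keratinocyte and 4 of 12 neural crest and glia genes. Epcam, an epithelial adhesion protein, had 366, 269, 305 and 314 and was within 2-fold. Among 6 keratinocyte genes, Dsp (desmoplakin) and Trp63 were bright only on the insulin arrays, at 21.9, 165, 185 and 185 and 56.7, 137, 244 and 283, and Cdsn (corneodesmosin) was far higher at 0 h (3752, 177, 268 and 319.6). Krt5, the basal keratin, was near the filter value (71.5, 76.6, 66.6 and 65.6). In the neural crest and glia list 2 of 8 were 2-fold higher, S100b (72.9, 231, 328 and 369) and Ednrb (35.9, 96.96, 152 and 157), while Sox10, the factor that defines that lineage, was within 2-fold (102, 119, 107 and 110.3). Tubb3, a tubulin of neurons, was bright only on the insulin arrays (35.8, 201, 209 and 162). In the list of mesothelium and visceral mesoderm, Foxf1 was bright only on the insulin arrays by its brightest probe set (64.7, 226, 228 and 202), while another differed little, from 92.1 at 0 h to 88.4 at 24 h. Msln and Gata6 (113, 48.8, 45.8 and 48.6, below the filter by its mean) were highest at 0 h.

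Patterning factors, which record position in the body, differed in both directions. Of 15 cranial and facial factors above the filter, 5 were at least 2-fold higher on the insulin arrays and 1 at 0 h, with a median of 0.82. Zic1, a zinc finger factor of dorsal neural tissue and skull mesenchyme, had 15.04, 1659, 1415 and 1415. Meox2, a homeobox factor of somites and limb muscle, had 15.5, 599, 593 and 532, and the list holds it although that role is not cranial. Msx2, a homeobox factor of skull sutures, had 48.5, 828, 773 and 672. Zic1, Meox2 and Msx2 were bright only on the insulin arrays. Six2 had 138, 580.1, 654 and 633, Alx1, a factor of facial mesenchyme, had 28.98, 113, 110.5 and 123, and Twist1 had 649.8, 766, 1013 and 809. The exception was Tfap2a, a factor of neural crest and surface ectoderm, which was high at 0 h alone (546, 68.6, 53.98 and 55.3). Its further probe set above the filter was also lower on the insulin arrays.

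Limb and trunk factors leaned to the control array in their largest differences. Of 13 above the filter, 4 (30.8%) were at least 2-fold higher at 0 h, against 4.8% of all kept genes. On the insulin arrays 2 (15.4%) were higher by that size, near the 11.1% of all kept genes, and the median was 0.04. Shox2, a homeobox factor of the upper limb segment, had 2341, 274, 238 and 238. Osr1, the relative of Osr2, had 1958, 651, 574 and 571, and Meis2, a partner of Hox proteins, had 1617, 698, 815 and 809. Further probe sets of Meis2 differed by -0.69, -0.65 and -1.12 in log2. Osr2, Shox2, Osr1 and Meis2 made up the 4 that were at least 2-fold higher at 0 h. Irx3 (224, 948, 1173 and 1109.5) and Tbx15 (289, 604, 719 and 754), factors of limb and trunk mesenchyme, were lowest there. The limb identity factor Tbx5 was near the filter value on all arrays (65.6, 71.7, 63.6 and 71.2). Emx2, which helps to form the shoulder blade, differed little (225, 221, 243 and 231).

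Hox genes, whose order along the chromosome follows position along the body, were dim on the whole. Of 33 measured, 12 passed the filter and 20 were below its value on all arrays. None of the 12 was 2-fold higher on the insulin arrays and 3 were at least 2-fold higher at 0 h, with a median of -0.32. Those 3 were Hoxa7 (429.9, 129, 120.2 and 122), Hoxd8 (1084, 409, 431 and 365) and Hoxd9 (427, 205, 229.8 and 177). In each the 0 h value lay above all insulin arrays. Hoxa5 leaned the same way by less (418, 247, 228 and 233), although its other probe set did not. The gene that leaned most to the insulin arrays was Hoxb3 (126, 219, 263 and 232), and Hoxc6 (99.8, 74.1, 76.03 and 71.3) and Hoxc9 (175, 157, 147 and 151) were within 2-fold.

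**Figure D4:**
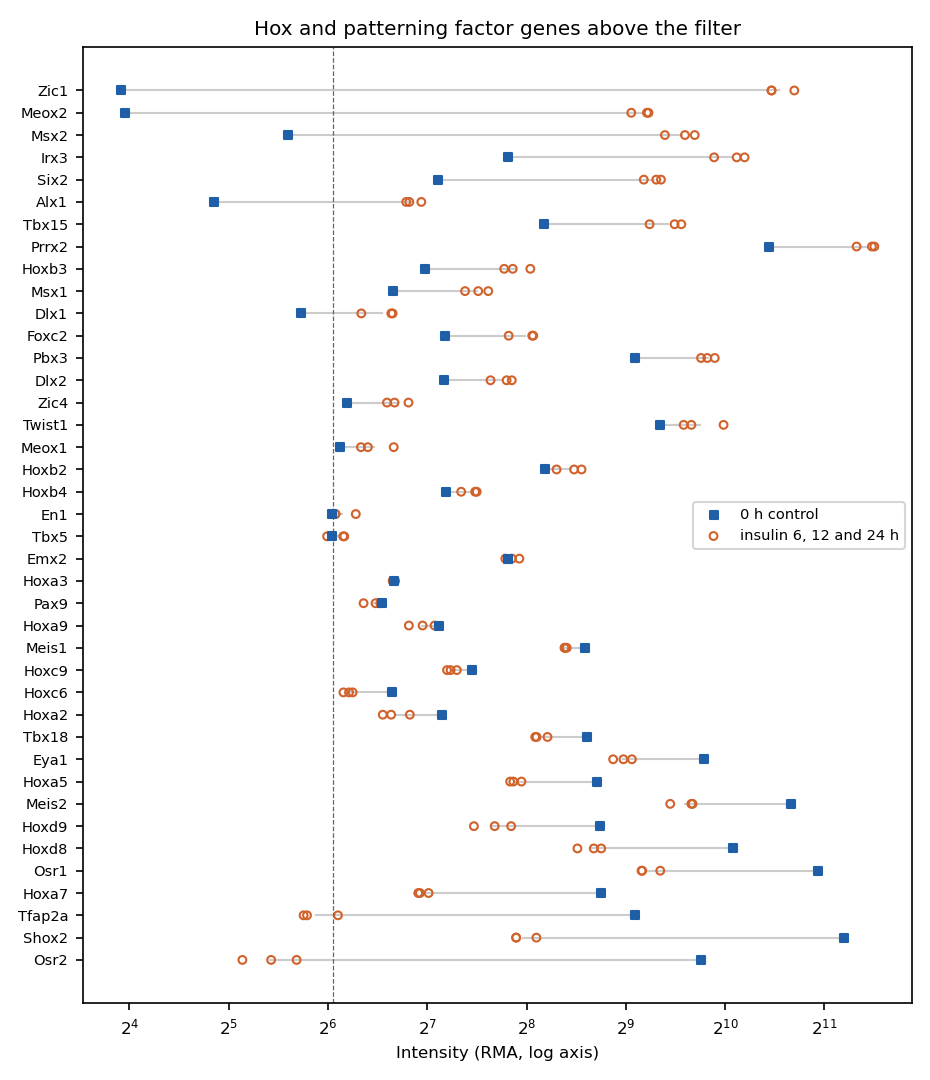
Intensity (log axis) of each Hox and patterning gene above the filter on the 0 h array (blue squares) and on the 3 insulin arrays (orange circles), with genes ordered by the difference and the filter value of 66.2 dashed. Zic1, Meox2 and Msx2 lie far to the left at 0 h, while Osr2, Shox2, Tfap2a and Hoxa7 lie far to the right at 0 h, and the 3 insulin arrays cluster for nearly every gene.

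Imprinted genes were among the most divided groups. Of 20 above the filter, 11 were at least 2-fold higher on the insulin arrays, 3 at least 2-fold higher at 0 h, and the median was 1.19. Grb10, an adaptor that restrains growth, had 49.6, 5596, 5434 and 5438. Mest, an enzyme-like protein of embryonic mesoderm, had 241, 6107, 5982 and 5574, Plagl1, a zinc finger factor, had 600.0, 7649, 7769.6 and 7344, and Igf2, the fetal growth factor, had 283, 3797, 4115 and 4172. Cdkn1c, an inhibitor of cell division, had 32.1, 830.4, 849 and 952. In all 5 the 0 h array was the lowest by a wide margin. The members higher at 0 h were Dlk1, the transporter gene Slc38a4 (2052, 164, 145 and 157) and Airn, the non-coding RNA antisense to Igf2r (669, 192, 158 and 192). Dlk1 shares an imprinted region of chromosome 12 with the non-coding RNAs Meg3, Rian and Mirg, which are read from the other parental copy. Meg3 had 186, 6793, 6596 and 6521, Rian had 46.9, 733, 537 and 470.4 and Mirg had 49.98, 422, 421 and 389.5, opposite to Dlk1 on every insulin array. All 10 further probe sets of Meg3 above the filter were higher on the insulin arrays. Kcnq1ot1 (291, 264, 253 and 293) and Gnas (9977, 12212, 12855 and 11992) were within 2-fold, and another probe set of Igf2r pointed the other way.

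**Figure D5:**
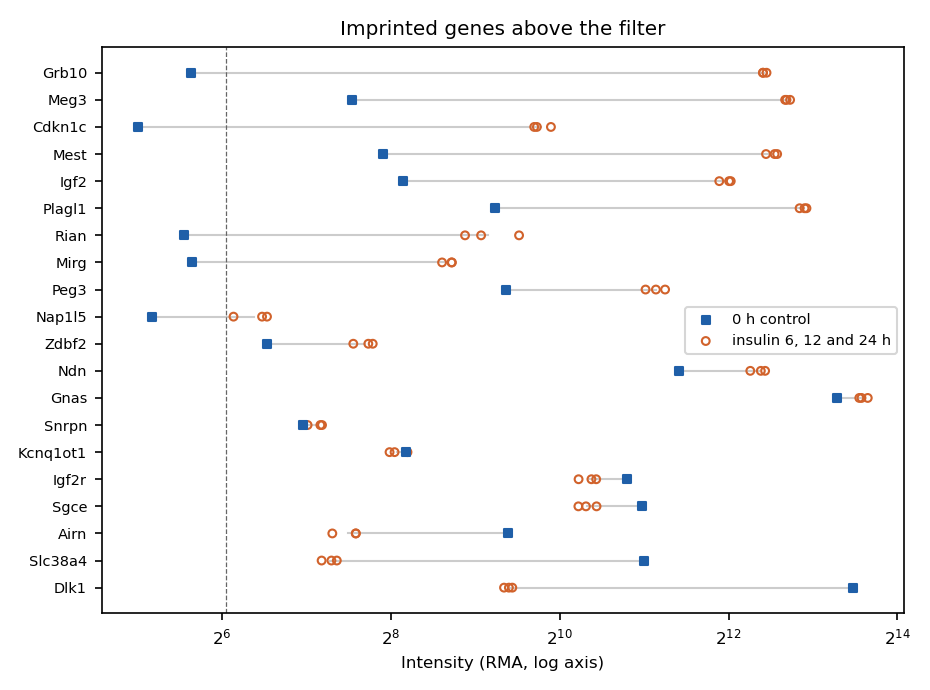
Intensity (log axis) of the 20 imprinted genes above the filter on the 0 h array (blue squares) and the 3 insulin arrays (orange circles), ordered by the difference, with the filter value of 66.2 dashed. Grb10, Meg3, Cdkn1c, Mest and Igf2 are far to the left at 0 h, and Dlk1, Slc38a4 and Airn far to the right.

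Beta protocadherins, surface proteins of which single cells switch on few, leaned to 0 h. Of 8 above the filter, 3 were at least 2-fold higher at 0 h and 0 on the insulin arrays, with a median of -0.72. Pcdhb16 had 1161, 82.7, 81.04 and 84.6, Pcdhb9 had 502, 108, 189 and 228, and Pcdhb22, the one that leaned most to the insulin arrays, had 121, 228, 234 and 259. Pcdhb16 was thus bright at 0 h and near the filter value after it, and its further probe set was lower there as well. Among genes whose loss or gain accompanies long culture, Mdm2, the ligase that degrades p53, had 13646, 1895, 1823 and 1865 and Cdkn1a, a p53 target that stops the cell cycle, had 4525, 11289.5, 11486 and 10459.8. Cdkn2a, the locus of the senescence proteins INK4A and ARF, had 178, 112, 104 and 128, and Rb1 had 341, 573, 733 and 765. Mdm2 and Cdkn1a were thus apart in opposite directions. Of 8 such genes 2 (25%) were 2-fold higher on the insulin arrays and 1 (12.5%) lower, against 11.1% and 4.8% of all kept genes.

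The genes the labels name were bright on both sides. Igf1r had 388, 259, 265 and 319 and Insr, the insulin receptor, had 369, 181, 206 and 215, both highest at 0 h and within 2-fold. Igf1 had 1641, 5532, 5983 and 6024, lowest at 0 h. These values check no genotype, since the sources used here do not place the probes relative to a deleted part.

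Promoter sequences were available from RefSeq (GRCm38.p6) for 9426 of the 11662 genes, and the 250 bases before each start were searched. The letters TATAAA on the sense strand, the TATA box 20 to 40 bases before the start, were found in 3.08% of genes higher on the insulin arrays, 2.30% of those higher at 0 h and 1.75% of all. Counts are of genes with a promoter, matched where any of their promoters held the letters. In the same order, genes had 1.34, 1.27 and 1.28 promoters on average, and more promoters give more places to match. For CpG each gene gave the highest ratio of observed to expected among its promoters. The median was 0.64, 0.75 and 0.76 in the same order, and 0.61 for genes bright only on the insulin arrays. After the values were seen, 2 more motifs were searched on both strands. The first was the interferon-stimulated response element, GAAANNGAAA. It was found for 34 of 435 genes higher at 0 h (7.82%), 2.69% of those higher on the insulin arrays and 2.96% of all. The CArG box, the site of serum response factor, was found for 23 of 1005 genes higher on the insulin arrays (2.29%). That box was found for 0.46% of those higher at 0 h and 1.43% of all. A match describes letters in a window and shows no binding. Of the 17 genes bright only at 0 h, 10 had a promoter in the table, and 0 of them held any of these motifs.

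Windows around such matches are shown for 3 genes of each direction, with the motif in capitals, to set the letters beside the values. Cxcl10, a chemokine (1071, 168, 116 and 119), Ifit3, an antiviral protein (6924, 1437, 1205 and 863), and Rsad2, the antiviral enzyme viperin (900.5, 128, 118 and 104), were highest at 0 h and hold GAAANNGAAA or its reverse complement. Their windows lie at chr5:92349068-92349127 on the minus strand, chr19:34583348-34583441 on the plus strand and chr12:26456538-26456597 on the minus strand.
Cxcl10: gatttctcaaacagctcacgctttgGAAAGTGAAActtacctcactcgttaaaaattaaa
Ifit3: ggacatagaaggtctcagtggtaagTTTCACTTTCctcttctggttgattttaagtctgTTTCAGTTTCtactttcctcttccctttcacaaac
Rsad2: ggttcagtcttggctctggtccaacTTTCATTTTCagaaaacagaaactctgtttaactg
The contractile genes Acta1 and Myl9, a myosin light chain (357, 9233, 9428 and 9072), and Fhl1 were lowest at 0 h and hold the CArG box, in windows at chr8:123894814-123894873 on the minus strand, chr2:156775278-156775337 on the plus strand and chrX:56779556-56779615 on the plus strand.
Acta1: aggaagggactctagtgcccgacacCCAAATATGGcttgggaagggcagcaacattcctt
Myl9: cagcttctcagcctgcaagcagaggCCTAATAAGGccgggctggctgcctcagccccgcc
Fhl1: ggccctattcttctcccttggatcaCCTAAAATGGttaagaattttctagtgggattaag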

How the data were processed

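The authors deposited linear intensities, 1 for each probe set on each array, made with RMA per the submitters' processing notes. RMA corrects background and normalizes arrays to one another. The sources used here give neither its version nor a genome build. Values ran from 7.34 to 31292 for 45101 probe sets, of which 64 were controls. The log2 of the deposited values was taken before any difference.

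Platform annotation gave 1 symbol to 34958 probe sets, several to 932 and none here to 9147. No depth applies to arrays, and their number limits the precision. The members and lists were chosen with earlier results of these data known. Named genes were the 12 farthest apart among those bright on one side, the 5 or fewer 2-fold members farthest apart in each list, the first 3 members of each cell type list, sex-linked genes, Igf1r, Igf1 and Insr. Other list members, the windows and the neighbouring runs were chosen after their values were seen. For 1 gene no value is reported here. Python 3.11.15 was used, with pandas 2.3.3 and numpy 2.4.6 for tables, statsmodels 0.14.6 for loess, scipy 1.17.1, and matplotlib 3.10.9 for figures. Counting was tested on simulated data of this comparison with 11707 genes. There 100 of 100 genes changed 3-fold in each direction and 50 of 50 bright on each side were recovered, with 0 unchanged genes called. The changed genes were drawn well above the filter value, and those bright on one side were set so that their mean passed it. The recovery therefore does not measure genes lost to the filter, such as the 25 added at 0 h with the filter on the brighter side. The simulated 0 h array was the mean of the insulin arrays plus noise of 0.12 (standard deviation, log2), set from the 12 and 24 h arrays. The real 0 h array has no replicate, so the 0 unchanged genes called give no error rate for these data. Alternatives were other filters, fold and brightness thresholds, scalings, probe set rules, chromosome medians removed, means in place of medians and other reference arrays.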

Additional observations from a re-analysis of the deposited data

Results flagged for a closer look

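Probe sets with several gene symbols or none were left out of the comparison of genes. Of 10092 such probe sets, 65 were bright on all 3 insulin arrays and below the filter value at 0 h (0.644%), and 34 were bright at 0 h and below it on all insulin arrays (0.337%). They drew attention as signal in data that the gene comparison did not use, with the control array below the filter value for the 65.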

How the results depend on the processing

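No paired analysis was possible because each group holds 1 array, and the replicate number 1 in every title pairs nothing. The counts of genes 2-fold higher on the insulin arrays, 2-fold higher at 0 h, bright only on the insulin arrays and bright only at 0 h were 1289, 560, 336 and 17. Leaving out each insulin array in turn gave 1212 to 1316, 563 to 582, 331 to 367 and 21 to 29. With the filter at the 75th percentile they were 697, 299, 222 and 29. That setting tests fewer genes and also raises the limits for bright and dim, and its last 2 lists shared 81 of the 336 genes and 0 of the 17. With 1.5-fold in place of 2-fold the first 2 counts were 2269 and 1503, and with 4-fold 546 and 88. With bright set at the filter value the last 2 counts were 634 and 34, and at 4 times it 176 and 7. Without a filter, or with it on the brighter side, 42 and 42 genes were bright only at 0 h. With the 6, 12 or 24 h array in place of the control, the 0 h array falls among the pooled 3 and the signs turn by construction. The counts were then 28, 34 and 37 higher, 209, 365 and 363 lower, and 0, 0 and 0 bright on either side. In the same order of 6, 12 and 24 h as reference, list medians were -0.13, -1.05 and -1.10 for osteoblast, -0.12, -0.60 and -0.58 for osteocyte, -0.22, -0.88 and -0.96 for chondrocyte, -0.50, -1.07 and -0.76 for tendon, and -0.24, -0.53 and -0.27 for fat progenitor genes. They were -0.69, -0.89 and -0.82 for smooth muscle, -0.40, -0.44 and -0.45 for pericyte, -0.54, -1.19 and -1.57 for macrophage, -0.0726, -0.30 and -0.37 for osteoclast, -0.50, -0.53 and -0.0472 for neuron and -0.56, -0.44 and -0.19 for imprinted genes. The fat progenitor median was also -0.0893 without a filter and -1.61 with the filter at the 75th percentile, and the cause was not tested. Among the other alternatives, the medians of at least 1 in size kept their direction, from 1.72 to 2.503 for osteoblast, 1.49 to 3.71 for chondrocyte, 1.46 to 2.81 for tendon, 2.21 to 4.69 for smooth muscle and 3.03 to 3.69 for macrophage, and from 0.05 to 1.70 for pericyte, 0.01 to 1.02 for osteoclast, 0.22 to 2.27 for neuron and 0.23 to 2.69 for imprinted genes. Of the 2-fold genes 69.7% were higher on the insulin arrays, 65.9% after quantile normalization and 71.9% with a loess curve removed. Signal near background and the single control array limit every fold given.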

Other observations

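Some genes that lie next to each other in the RefSeq gene order were on the same side. Of 11622 pairs of neighbouring kept genes, 193 were both at least 2-fold higher on the insulin arrays, 79 both at least 2-fold higher at 0 h, 20 both bright only on the insulin arrays and 0 both bright only at 0 h. Taken singly, 11.1%, 4.8%, 2.88% and 0.146% of all kept genes met these calls, in the same order. No count for genes placed at random was made, so whether neighbours shared a side more often than that was not tested. Some runs are known clusters. Dmp1, Ibsp and Mepe, matrix genes of mineralised tissue on chromosome 5, were all higher on the insulin arrays, with Mepe the dimmest (61.8, 116, 155 and 142). C1qa, C1qb and C1qc on chromosome 4 were all bright only on the insulin arrays, and Mmp13, Mmp12 and Mmp3 on chromosome 9 were all higher there. Hoxd9, Hoxd8 and Hoxd3os1 on chromosome 2 were all higher at 0 h.

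Other runs hold genes of unlike roles. On chromosome 10, Mdm2 (13646, 1895, 1823 and 1865), the transporter gene Slc35e3 (9761, 538, 615 and 613) and the nuclear pore gene Nup107 (1151, 571, 516 and 506) were all highest at 0 h. On chromosome 1, Igfbp2, Igfbp5, Tns1 and Arpc2 were all higher on the insulin arrays. The zinc finger genes Zfp930, Zfp868 and Zfp869 on chromosome 8, and Zfp229, Zfp995 and Zfp942 on chromosome 17, were all higher at 0 h. The share of kept genes at least 2-fold higher at 0 h was 11.6% on the X chromosome, 10.5% on chromosome 3, 1.26% on chromosome 4 and 1.13% on chromosome 7, against 4.8% of all. The share at least 2-fold higher on the insulin arrays was 14.6%, 10.3%, 17.1% and 13.5% on the same chromosomes, against 11.1% of all, so the X chromosome was above the share of all genes in both directions. What sets these shares was not tested.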
